A study of Mus musculus with 3 samples.

Results

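The genes followed here encode proteins of planar cell polarity and receptors of noncanonical Wnt signalling, measured in dorsal dermal fibroblast progenitors of the mouse at embryonic day 12.5. The 10 genes listed were Vangl1, Vangl2, Celsr1, Celsr2, Celsr3, Prickle1, Ror1, Ror2, Ryk and Ptk7, and their probes were taken by the gene symbol, or else a synonym, that the deposited table gives. By that rule 9 of the 10 genes were found, with 13 of the 25697 probes. Vangl2 had no probe under its own name, but RefSeq lists Ltap as an older name of Vangl2 and of no other gene, and 2 probes carried that name. Their values are given as Vangl2, and counts are given with and without them. The probes of Rora, which carry ROR1 and ROR2 in capitals among their synonyms, belong to another gene and were not counted.

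The progenitors were cut by laser capture from 5 embryos with the genotype Engrailed1Cre/+; R26R/+, that is, 1 Cre allele at Engrailed1 (En1), a gene active in the somite compartment from which dorsal dermis arises, and 1 Cre reporter allele at Rosa26. The RNA was pooled before amplification and read on 3 Illumina MouseRef-8 v2.0 bead arrays, numbered 1 to 3 here, which were technical replicates. The series thus held 1 group and 1 RNA pool, without controls, and an SD given here holds the technical variation alone, with none of that among embryos. The values answer which of these genes were read above array background in the pool, and how closely the arrays repeated each reading.

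Planar cell polarity aligns cells within the plane of a tissue. Celsr cadherins link neighbouring cells, Frizzled receptors with Dishevelled proteins take 1 side of each cell, and Vangl with Prickle proteins take the other. Noncanonical Wnt ligands such as Wnt5a act through Ror and Ryk receptors and the co-receptor Ptk7 on the actin cytoskeleton, JNK and calcium, without the need for beta-catenin. In the mouse embryo these proteins are known for closing the neural tube, for lengthening the body axis and limbs, and for orienting hair follicles in the epidermis.

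Each probe carries a detection p, a measure of how its signal ranks against the background of the same array. Detection required a value under 0.01 on each of the 3 arrays, and a gene counted as detected through any 1 of its probes. Signals are the authors' normalized intensities in arbitrary units, given as mean ± SD (n = 3 arrays), and the signal of 1 probe is not set against that of another, since probes differ in how strongly they bind. The lowest signal that passed was 23.1 on array 1, 44.3 on array 2 and 31.2 on array 3. Array 2 was the dimmest before normalization, with a median intensity of 83.8 against 107 and 112 on arrays 1 and 3. Of 17849 genes on the arrays, 7784 (43.6%) were detected, and of 25697 probes, 9693 (37.7%). Among the dermal mesenchyme markers, 10 of 11 were detected, including the mesenchymal factors Twist1 at 2723 ± 146 and Twist2 at 2827 ± 181 and the growth factor receptor Pdgfra at 4106 ± 158, while Dpt at 2.13 ± 3.02 was not. En1 itself read 46.6 ± 7.46, close to background. Of 63 markers of other cell types, 48 were detected: 8 of 10 for epidermis, 6 of 8 for endothelium, 5 of 7 for skeletal muscle, 6 of 8 for neurons, 3 of 6 for neural crest, glia and melanoblasts, 7 of 8 for macrophages, 7 of 8 for red blood cells and 6 of 8 for cartilage. With every probe of a gene required, skeletal muscle and macrophages fell to 3 each. The part of these cell types in the readings below was not tested.

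By the rule, 5 of the 9 genes were detected: Ror2, Ryk, Ptk7, Celsr3 and Prickle1. With Vangl2 the count was 6 of 10. By probe, 7 of 13 were detected, or 8 of 15 with the Vangl2 probes. Over the arrays 43.6% of genes and 37.7% of probes were detected. With so few genes listed, their count is no result of its own. Ror1, Celsr1, Celsr2 and Vangl1 were not detected. Calls differed between near relatives, with Ror2 read and Ror1 not, Celsr3 read and Celsr1 and Celsr2 not, and Vangl2 read and Vangl1 not. Prickle1 was read, and of its relatives outside the members Prickle3 was read and Prickle2 was not. Celsr3 and Vangl2 were each read by 1 of 2 probes and lost their call with every probe required, so that those 2 differences rest on probes that disagreed. Ror1, Ror2, Prickle1, Prickle2 and Prickle3 had 1 probe each, so that requirement could not change their calls, and no further probe checks them. The share of families with differing calls over all genes is not given, so these differences are no result about the families. No levels were compared within a family, and a gene below detection was not shown to be absent.

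The start sites of Ror1 and Ror2 are shown because these paralogs received opposite calls, a pair chosen after their values were seen. The 250 bases before each annotated start come from RefSeq (GRCm38.p6) and run 5′ to 3′ along the gene, with CG dinucleotides, the sites of DNA methylation in mammals, in capitals. Ror1 lies on the plus strand (chr4:100095541-100095790) and Ror2 on the minus strand (chr13:53286125-53286374).
Ror1: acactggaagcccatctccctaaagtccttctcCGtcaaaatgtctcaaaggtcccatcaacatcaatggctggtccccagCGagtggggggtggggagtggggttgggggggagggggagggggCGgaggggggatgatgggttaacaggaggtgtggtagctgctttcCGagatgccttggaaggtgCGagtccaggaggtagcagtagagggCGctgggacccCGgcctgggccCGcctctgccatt
Ror2: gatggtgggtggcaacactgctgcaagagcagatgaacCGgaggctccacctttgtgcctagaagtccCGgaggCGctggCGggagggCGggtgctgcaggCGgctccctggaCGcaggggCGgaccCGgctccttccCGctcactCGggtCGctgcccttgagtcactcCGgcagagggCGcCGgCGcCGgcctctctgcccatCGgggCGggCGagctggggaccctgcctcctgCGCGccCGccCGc

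The Ror1 stretch held 8 CG dinucleotides at a GC content of 62.4%, and the Ror2 stretch held 24 at 73.2%. Over 300 bases, which add the first 50 of the transcript, the observed number of CG was 0.38 of that expected from base composition for Ror1 and 0.77 for Ror2. A window was called CpG-rich at a GC content of at least 50% and an observed share of at least 0.6. The Ror2 window passed and the Ror1 window did not. The windows of Celsr2 (0.94), Celsr3 (0.95), Ptk7 (0.68) and Ryk (1.27) and both windows of Prickle1 (0.96 and 0.72) were CpG-rich as well, and that of Vangl2 (0.55) was not. Celsr2, which passed on 1 array, was thus CpG-rich without being detected. Vangl2 was detected, by 1 of 2 probes, without being CpG-rich. No window is given here for Celsr1 or Vangl1. Whether CpG content bears on the calls was not tested. Across the arrays 68.1% of the 7912 windows of detected genes and 32.4% of the 8795 windows of undetected genes were CpG-rich. The share over all 32851 windows was 33.5%, but many of those belong to neither group, so it is no baseline for the arrays. No measurement of methylation or binding at these starts was made here.

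Among the receptors, Ror2, a receptor tyrosine kinase that binds Wnt5a and is required for skeletal and limb growth, read 449, 435 and 484 on arrays 1, 2 and 3. Its mean was 456 ± 25.7, and even its lowest ratio to an array's lowest passing signal was 9.80. The arrays lay close together, and the detection p was 0 on each. Ror1, its paralog and also a Wnt5a receptor, read 7.38, 5.63 and 9.55, with a mean of 7.52 ± 1.96. All 3 arrays placed it below the passing signal, at detection p of 0.137, 0.328 and 0.0877.

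Ryk, a Wnt receptor with a WIF domain and an inactive kinase domain, was read by 3 probes, and all 3 were detected on every array at a detection p of 0. The first (ILMN_2667020) gave 2079, 1994 and 2066, a mean of 2046 ± 45.8. The second (ILMN_2742420) gave 117, 91.5 and 96.0, a mean of 102 ± 13.6, and its lowest ratio to an array's lowest passing signal was 2.06. The third (ILMN_3159826), which the deposited table ties to transcript variant 2, gave 795, 753 and 742, a mean of 763 ± 27.8. The call of Ryk therefore held with every probe required. Of the 2976 genes with several probes and at least 1 of them detected, 2066 (69.4%) had another probe that was not.

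Ptk7, a receptor-like protein with an inactive kinase domain that takes part in neural tube closure in the mouse, read 1476, 1449 and 1294. Its mean was 1407 ± 98.1, with array 3 the lowest. All 3 values were at least 32.7 times the lowest passing signal of their array.

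Among the core polarity proteins, the Celsr genes encode large cadherins that are also adhesion G protein-coupled receptors. Celsr1, known from the polarity of the mouse epidermis and inner ear, read 6.11, 28.0 and 5.50 by its only probe, a mean of 13.2 ± 12.8. Array 2 gave the highest value and also had the highest passing signal, and none of the detection p of 0.157, 0.0501 and 0.172 passed. Celsr2 was read by 2 probes and detected by neither. The first (ILMN_1243455) gave 28.5, 23.2 and 12.8 and passed on array 1 alone, at a detection p of 0.00125, while the second (ILMN_1254576) gave -7.74, -11.9 and -9.72.

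Celsr3, known for guiding axon tracts in the mouse brain, was detected by 1 of 2 probes. That probe (ILMN_2604070) gave 84.1, 107 and 66.3, a mean of 85.9 ± 20.6, with a detection p of 0 on each array. Its lowest ratio to an array's lowest passing signal was 2.12. The other (ILMN_2699498) gave 8.72, 20.8 and 8.15 and passed on no array, so the 2 probes of Celsr3 disagreed. Array 2 gave the higher value for both. Neuronal markers were also read in the pool, and 6 of 8 were detected. Among them were Stmn2 at 997 ± 26.7, Nefm at 263 ± 27.0 and Elavl3 at 60.2 ± 8.12, while Tubb3 at 12.0 ± 7.86 and Nefl at -13.3 ± 11.0 were not detected. The signals of all 8, undetected ones included, summed to 2239 to 2311 across arrays. In a pooled sample fewer cells of a type and less RNA per cell cannot be told apart.

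Vangl1 and Vangl2 encode the membrane proteins that recruit Prickle. Vangl1 read 7.59, 4.23 and 22.6, a mean of 11.5 ± 9.76. Its detection p of 0.130, 0.357 and 0.0213 passed on no array, with array 3 the nearest. Vangl2, the gene mutated in the loop-tail mouse, was read by the 2 probes named Ltap. One (ILMN_2685770) gave 654, 713 and 697, a mean of 688 ± 30.7, with a detection p of 0 on each array. The other (ILMN_2591811) gave 9.62, 3.51 and 11.4, a mean of 8.17 ± 4.13, and passed on none. The lowest ratio of the detected probe to an array's lowest passing signal was 16.1. As for Celsr3, 1 probe passed on every array and the other on none. The deposited table describes neither Ltap probe beyond its symbol.

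Prickle1, a cytoplasmic protein with LIM domains that binds Vangl, read 1629, 1495 and 1493. Its mean was 1539 ± 78.1, its detection p was 0 on each array, and its lowest ratio to an array's lowest passing signal was 33.7. Of its relatives outside the list, Prickle3 was detected at 150 ± 11.7 and Prickle2 at 4.69 ± 13.8 was not.

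Epidermal markers stand beside these genes because Celsr1 and Vangl2 are well known from the epidermis. Of 10 measured, 8 were detected, among them Krt5 at 72.2 ± 8.97, Krt14 at 1313 ± 58.6 and Krt15 at 287 ± 13.1. The signals of all 10, undetected ones included, summed to 2615 to 2822 across arrays. Grhl3, which acts with Vangl2 in the mouse epidermis, at -5.29 ± 10.3 and Perp at 5.54 ± 12.1 were not detected.

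**Figure D1:**
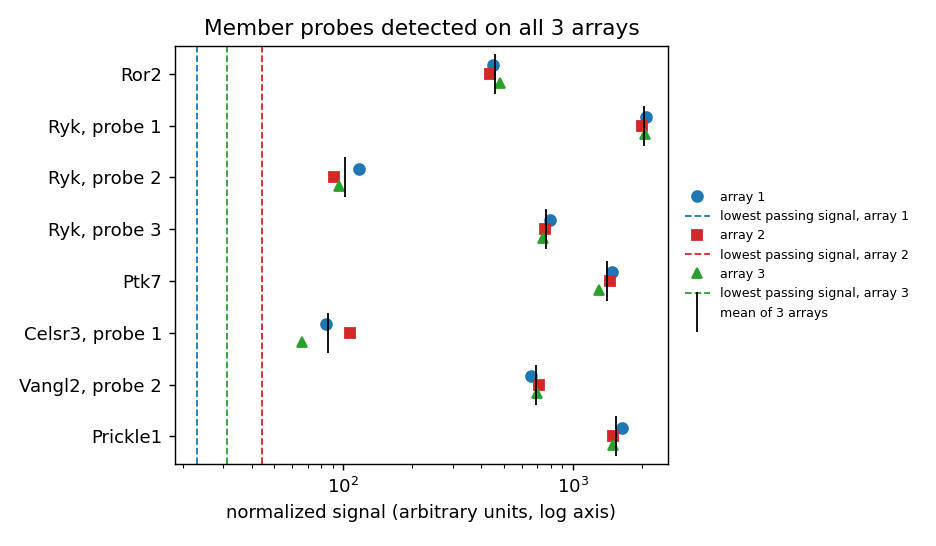
Normalized signal of the 8 detected probes, Vangl2 included, on a log axis in arbitrary units, with 1 point per array, a bar for the mean of 3 arrays and a dashed line for each array's lowest passing signal. Every point lies right of all 3 lines, and on this log scale the arrays spread most for Celsr3, from 66.3 to 107; positions of different probes are not comparable.

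**Figure D2:**
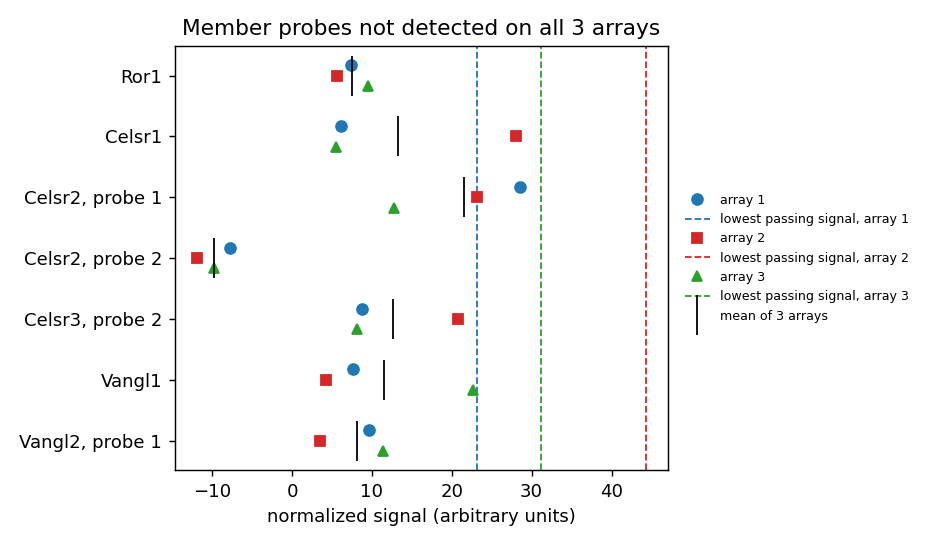
Normalized signal of the 7 probes not detected on all 3 arrays, on a linear axis in arbitrary units, with points, bars and lines as for the detected probes. The first Celsr2 probe passes on array 1 alone, at 28.5 against a lowest passing signal of 23.1, and every other point lies left of the line of its own array.

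The 3 arrays repeated the detected genes closely. Over the 7 detected probes found by the rule, the SD of log2 signal ran from 0.032 for the first Ryk probe to 0.348 for Celsr3, with a median of 0.081. Over all 9693 detected probes that median was 0.109. Ror2 (0.081), Ptk7 (0.103), Prickle1 (0.072) and the third Ryk probe (0.052) lay below 0.109, and the second Ryk probe (0.188) and Celsr3 (0.348), both with mean signals of at most 102, lay above it. The Vangl2 probe had an SD of 0.065.

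Array 2, the dimmest, was set against the mean of arrays 1 and 3 on the log2 scale. Before normalization the median difference was -1.44 over the 7 probes and -1.25 over all 9693 detected probes. After the authors' normalization the medians were -0.06 and 0.02. Celsr3 stood 0.52 higher on array 2 and the second Ryk probe at -0.21, both within the -0.50 to 0.65 that held the central 95% of all detected probes. With technical replicates of 1 pool these differences describe the arrays only.

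**Figure D3:**
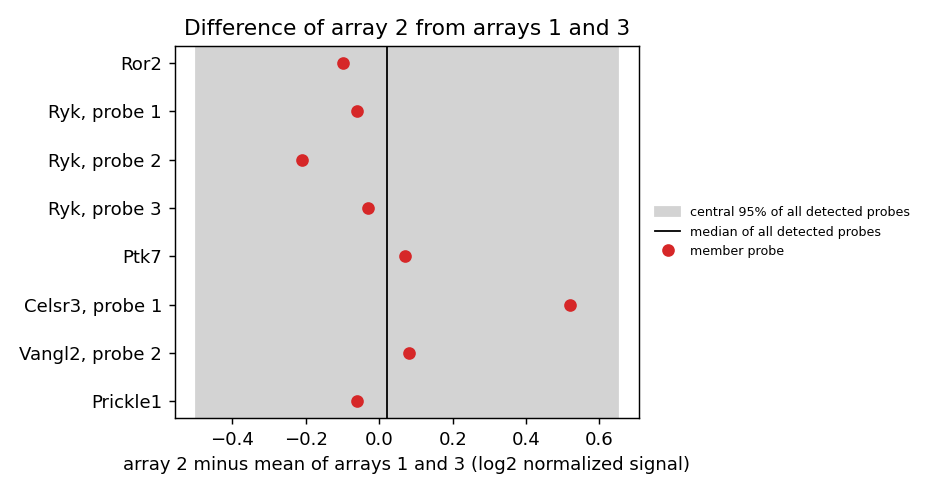
Difference between array 2 and the mean of arrays 1 and 3 in log2 normalized signal, 1 point for each of the 8 detected probes, with the central 95% (grey) and the median (line) of all 9693 detected probes. All points lie in the grey band, with Celsr3 at 0.52 the farthest to the right.

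Other genes of the same pathways were taken from 7 lists, in which 46 of 71 measured genes (64.8%) were detected, beside 43.6% of all genes. The share over all genes was 47.0% when 1298 odorant, pheromone, taste and beta-defensin genes were left out, only 3 of which passed. The lists were chosen with earlier results of these data known, so nothing particular to planar polarity is read from the difference. Its cause was not tested.

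Of 5 Wnt ligands used in noncanonical signalling, 3 were detected. Wnt5a, a ligand of Ror2 and Ryk, read 2369, 2471 and 2442, so that it and both receptors were above background on every array. Wnt4 (392 ± 38.3) and Wnt11 (50.2 ± 7.44), the latter known from cell movements in zebrafish gastrulation, were detected, and Wnt5b (64.5 ± 19.8) and Wnt9b (25.2 ± 9.09) were not. Wnt5b passed on 2 arrays. Wnt11 lay close to background on array 2, at 48.5 against a lowest passing signal of 44.3.

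Frizzled receptors were detected at 7 of 9. Fzd3 and Fzd6, which are among the Frizzleds known from planar polarity in the mouse, read 56.5 ± 1.81 and 100 ± 5.83. Fzd1 (626 ± 14.2), Fzd2 (1607 ± 129), Fzd5 (90.9 ± 9.23) and Fzd7 (688 ± 77.4) were detected too, and Fzd4 (24.8 ± 24.2) and Fzd8 (20.5 ± 11.1) were not. Other receptors and co-receptors gave 6 of 10, with Atp6ap2 among them through 1 of 4 probes. The detected ones included Mcam (526 ± 6.62), a Wnt5a receptor, the heparan sulfate proteoglycans Gpc4 (111 ± 6.99), Gpc6 (134 ± 2.97) and Sdc4 (369 ± 10.3), the secreted Rspo3 (155 ± 8.88) and Atp6ap2 (2431 ± 45.1). The muscle kinase Musk (3.09 ± 9.39), both canonical co-receptors Lrp5 (8.85 ± 8.07) and Lrp6 (19.2 ± 11.5), and Cthrc1 (-1.01 ± 3.92), a secreted partner of Ror2, were not detected.

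Of 21 polarity core and effector genes outside the members, 11 were detected, Fzd3 and Fzd6 among them, which the Frizzled count also holds. Of the Dishevelled genes, Dvl1 was detected at 183 ± 12.9 by 1 of 2 probes, whereas Dvl2 (3.67 ± 1.65) and Dvl3 (-2.88 ± 7.60) were not. Ankrd6, the mouse Diversin, was detected at 100 ± 6.62 by 1 of 6 probes and the scaffold gene Scrib at 193 ± 22.9 by 1 of 3. Dact1 (39.7 ± 6.14) passed on 2 arrays and was not called. With every probe of a gene required, this count fell to 5, beside 5718 genes (32.0%) over the arrays. In the Fat and Dachsous system, which sets polarity across tissues, 2 of 4 measured genes were detected. These were the giant cadherin gene Fat4 at 360 ± 31.9 and Fjx1, the relative of the Drosophila Golgi kinase gene four-jointed, at 545 ± 29.6. Fat1 (-6.92 ± 21.6) and Fat2 (-4.41 ± 17.5) were not detected. The other 4 of the 8 genes listed, Fat3, Dchs1, Dchs2 and Lix1l, had no probe under these names, so no Dachsous gene was read.

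Downstream, the JNK arm gave 7 of 8, among them the kinase genes Map3k7 (74.3 ± 22.8), Map2k4 (619 ± 41.4), Map2k7 (112 ± 21.4), Mapk8 (382 ± 9.89) and Mapk9 (1342 ± 53.8) and the target Jun (455 ± 29.4). Mapk10, which is expressed mainly in neurons, at -1.82 ± 7.91 was not. On array 2 Map3k7 read 48.2, close to the lowest passing signal of 44.3. Map2k7 and Mapk9 were each detected by 1 of 3 probes, and the count for this arm was 4 with every probe required. The calcium arm gave 12 of 16, among them Plcb3 (381 ± 21.1), Prkcd (212 ± 15.1), Camk2a (46.6 ± 5.06), Camk2b (99.0 ± 4.45), Camk2g (249 ± 21.3) and the calcineurin gene Ppp3ca (1084 ± 70.0). Plcb1 (-8.94 ± 6.86), Prkca (11.4 ± 5.37), Camk2d (14.2 ± 4.10) and Nfatc2 (8.11 ± 9.86) were not detected. Camk2a was likewise close to background on array 2, at 46.8. It was detected by 1 of 3 probes and Ppp3ca by 2 of 3, and the count for the calcium arm was 8 with every probe required.

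**Figure D4:**
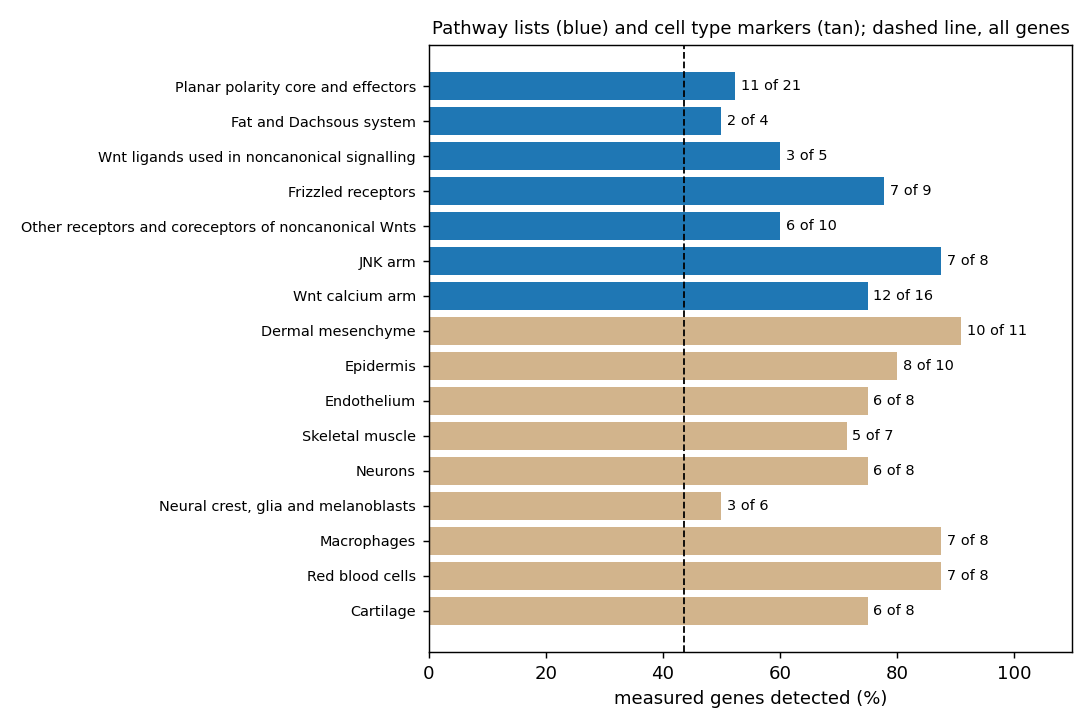
Percent of measured genes detected on all 3 arrays in the 7 pathway lists (blue) and the 9 cell type marker lists (tan), with the counts at the bars and a dashed line at the 43.6% of all genes. Each list lies right of the line, from 2 of 4 for the Fat and Dachsous system to 10 of 11 for dermal mesenchyme, and the lists of other cell types do so as well.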

How the data were processed

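Total RNA was isolated with Trizol and RNeasy columns and labelled with biotin after Ambion MessageAmp amplification, per the labels' protocols. The authors deposited non-normalized and normalized bead intensity for 25697 probes on 3 arrays, and, per the file headers, a detection p-value per probe and array. As the values show, each normalized intensity was the non-normalized one times 1 slope (0.672, 2.07 and 0.699 on arrays 1 to 3) plus 1 offset (-57.2, -152 and -63.5), within 0.0152. The value table of the series matched these intensities exactly, so its scale is linear and uncentred, with medians of 14.9, 21.5 and 15.0. What software and which named normalization the authors used is not given in the sources used here.

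Probes were called at a threshold of 0.01 on each of the 3 arrays, and list genes are valued by their brightest probe. Symbols were updated through RefSeq (GRCm38.p6): 17548 probes matched by symbol, 1320 through the definition text and 5855 through an unambiguous synonym, and 974 kept their deposited symbol. The pathway and marker lists and the members were chosen with earlier results of these data known. In each pathway list the first 6 detected and first 4 undetected genes in list order are named, in the marker lists the first 3 of each where they are described, besides Wnt5a, Wnt11, Fzd3, Fzd6, Dvl1, Dvl2, Dvl3, Twist2, Pdgfra and En1. Prickle2 and Prickle3 fall under that rule. Beside the 7 pathway lists reported, a further one is not reported here. With 1 group of technical replicates no test between groups was made, and the number of arrays limits the precision. Counting and spread procedures were run on simulated data with planted values. The planted detection p lay clear of every threshold, so this checks the code and not the calls. Values were computed with Python 3.11.15, numpy 2.4.6 and pandas 2.3.3. Alternatives covered the detection threshold, the arrays and probes required, each array left out and quantile normalization.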

Additional observations from a re-analysis of the deposited data

How the results depend on the processing

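The 5 detected genes of 9 stayed 5 at a detection p under 0.05 or 0.001, on at least 2 arrays, and without any 1 array. The count was 6 when 1 array sufficed, through Celsr2, and 4 when every probe was required, through the loss of Celsr3. Vangl2, read by the probes named Ltap, an alternative added after the data were seen, was lost as well with every probe required, and brought the count to 6 of 10 genes and 8 of 15 probes. Over all genes the count ran from 5718 with every probe required to 9232 with 1 array, and it was 7864 with file symbols not updated, likewise added later. The pathway lists ran from 32 to 52 of 71 genes. With every probe required, the counts were 4 for the JNK arm, 5 for the polarity core and effectors, and 3 each for skeletal muscle and macrophages, and the noncanonical Wnt ligands were 5 of 5 at a detection p under 0.05. The median SD of log2 signal over the 7 detected probes was 0.080 after quantile normalization, 0.078 with an offset of 16, and 0.048 to 0.089 with 1 array left out. The difference of array 2 was -0.08 after quantile normalization and -1.65 with array medians subtracted from the non-normalized intensity, which removes each array's background but not its scale. Quantile normalization, which keeps the background, moved the mean signal of all 15 probes by more than their SD. No paired analysis was possible because the series holds 1 group. Signals under the lowest passing ones (23.1, 44.3 and 31.2 on arrays 1 to 3) cannot be told from background.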
